A study of Mus musculus with 24 samples.

Results

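The cytosolic ribosome is built from ribosomal RNA and a fixed set of proteins, one group in the small 40S subunit, which decodes the messenger RNA, and one in the large 60S subunit, which joins the amino acids. The messenger RNAs of these proteins start with a C followed by a run of pyrimidines, the terminal oligopyrimidine or TOP motif, through which their translation answers together to mTOR signalling. In blood the transcripts are abundant in lymphocytes and in reticulocytes, the youngest red cells, and some free ribosomal proteins bind Mdm2, the ubiquitin ligase that holds p53 in check.

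The genes described are those whose name is Rpl or Rps with a number and at most 1 letter, or Rplp0, Rplp1, Rplp2 or Rpsa. Each was read from its brightest probe. Of 80 genes of that name pattern on the array, 77 had a probe well above background on all 24 arrays and are the ribosomal protein genes below, against 13013 genes tested in all. They comprise 45 genes of the 60S subunit, 3 of them for its stalk, and 32 of the 40S subunit. No probe of these 77 was saturated on any array. The 3 genes left out are the tissue-restricted paralogs Rpl10l, well above background on 11 arrays, Rpl3l, on 6, and Rpl39l, on 3. Rps27l was the dimmest gene kept, with a mean of 3.19 on the log2 scale defined below, and Rpl41 the brightest, with 11.26.

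The samples were whole blood of male 129S/J mice, collected by cardiac puncture 24 h after exposure and reduced in globin RNA, 1 mouse per array. Wild-type mice (WT) received 0 Gy (sham, n = 5), 6 Gy (n = 5) or 8.8 Gy (n = 4) of X rays. Mice lacking Parp1 (KO, Parp1-/-), a sensor of DNA strand breaks, received 0 Gy (n = 5) or 6 Gy (n = 5). Per the series design, 8.8 Gy in the wild type and 6 Gy in the knockout are the doses at which 50% of such mice die within 30 days. All levels are log2 of the background-subtracted signal minus the 75th percentile of the same array, so that 0 is that percentile. A gene is called where limma's adjusted p (Benjamini-Hochberg over 13013 genes) was under 0.05.

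Parp1 was well above background on 5 of 5 WT 0 Gy arrays and on none of 5 KO 0 Gy arrays, at -0.94 to -0.35 and -3.82 to -2.29. In WT 6 Gy it was lower, at -2.33 to -1.27, and well above background on 3 of 5 arrays. In the other irradiated groups 2 arrays stood apart by their level of Parp1. KO 6 Gy replicate 1 had Parp1 well above background at -1.67, against -5.01 to -3.45 on the other KO 6 Gy arrays, and WT 8.8 Gy replicate 4 had it at -3.95, not well above background. The library labelled KO 6 Gy 1 was also nearly the same as that labelled WT 8.8 Gy 2: their difference had a SD of 0.167 over 10767 probes, against a median SD of 0.901 over 276 pairs of arrays. The counts and medians of the ribosomal protein genes that rest on these libraries are given with and without them. The WT 0 Gy arrays were all scanned on 1 day and the irradiated WT arrays all on another, so in the wild type radiation and scan day cannot be told apart without the KO arrays that link the days. The KO 0 Gy arrays were scanned on days without any WT array, 2 on 1 day and 3 on another. Genotype without radiation is therefore likewise tied to scan day. Of the KO 6 Gy arrays, 1 shared a day with KO 0 Gy arrays, 3 with the irradiated WT arrays and 1 with the WT 0 Gy arrays.

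The start sites of 56 of the 77 genes were found in RefSeq's promoter table (GRCm38.p6). In the 30 bases around the start, 15 before and 15 from the first transcribed base, a run of at least 7 pyrimidines on the sense strand was present in 32 of the 56 genes, 57.1%, against 21.3% of 27025 genes with a promoter in the table and 16.7% of 66 mitochondrial ribosomal protein genes. On the opposite strand the shares were 7.14% and 23.1%. The windows of 6 genes are printed 5′ to 3′ with the longest run of C and T in capitals, to set genes that fell at 8.8 Gy (Rps27, Rps6, Rpl13a, Rpl15) beside a stalk gene that was not called (Rplp2) and the gene that rose in the knockout (Rps27l, the one of its 2 listed starts with the longer run).
Rps27 (chr3:90213634-90213663, minus strand): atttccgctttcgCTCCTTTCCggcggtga
Rps6 (chr4:86857353-86857382, minus strand): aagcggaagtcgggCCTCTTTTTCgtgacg
Rpl13a (chr7:45128731-45128760, minus strand): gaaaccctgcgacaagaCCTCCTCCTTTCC
Rpl15 (chr14:18270972-18271001, minus strand): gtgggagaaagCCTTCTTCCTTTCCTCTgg
Rplp2 (chr7:141447636-141447665, plus strand): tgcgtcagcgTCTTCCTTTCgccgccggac
Rps27l (chr9:66946071-66946100, plus strand): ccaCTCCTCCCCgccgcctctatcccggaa
The runs of Rps27, Rps6, Rpl15 and Rplp2 reach across the annotated start, while that of Rps27l ends before it. The letters CCGGAAG, on either strand of the 300-base promoters, were present in 23 of the 56 genes (41.1%), in 36.4% of the mitochondrial ribosomal protein genes and in 9.93% of all genes of the table. In the radiation response, the median difference at 8.8 Gy was -1.03 for the 32 genes with a run and -0.98 for the 24 without one, a description with no test.

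Most ribosomal protein genes were lower in blood after 8.8 Gy in the wild type and after 6 Gy in the knockout. In bulk blood, fewer cells of a type and less RNA per cell cannot be told apart. The median of the 77 genes was 7.31, 7.50, 7.22, 7.44 and 7.47 on the WT 0 Gy arrays and 6.84, 6.57, 6.68 and 6.22 on the WT 8.8 Gy arrays, which do not overlap. In the knockout it was 7.27, 7.23, 7.24, 7.69 and 7.72 without radiation and 6.56, 6.98, 7.01, 6.78 and 6.73 after 6 Gy, also without overlap. The WT 6 Gy arrays, at 6.99, 7.02, 6.73, 7.30 and 7.26, reached into the range of the WT 0 Gy arrays. The 77 probes made up 6.19% ± 0.213 (SD, n = 5) of the summed signal of all probes in WT 0 Gy, 5.82% ± 0.669 (n = 5) in WT 6 Gy and 4.64% ± 0.522 (n = 4) in WT 8.8 Gy. The shares in the knockout were 5.74% ± 0.825 (n = 5) in KO 0 Gy and 5.29% ± 0.512 (n = 5) in KO 6 Gy, and the groups overlapped there. With a fixed term for the slide or for the scan day, limma called no ribosomal protein gene in any comparison of irradiated with sham blood, with medians of -0.88 or -1.02 at 8.8 Gy, -0.63 in the knockout and -0.29 or -0.45 at 6 Gy in the wild type. In those fits 11 or 38, 14 or 9 and 2 or 4 of the 77 had an unadjusted p under 0.05. So had 1116 or 885, 2116 or 1828 and 1424 or 1032 of all 13013 genes. In the knockout the share of the 77 is thus near that of all genes, and at 6 Gy in the wild type it is lower. Called among all genes were 0 or 23, 53 or 56 and 0 or 15. With slide as a random block 51, 39 and 10 ribosomal protein genes were called lower, where 876, 1047 and 1194 of all genes were.

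**Figure D1:**
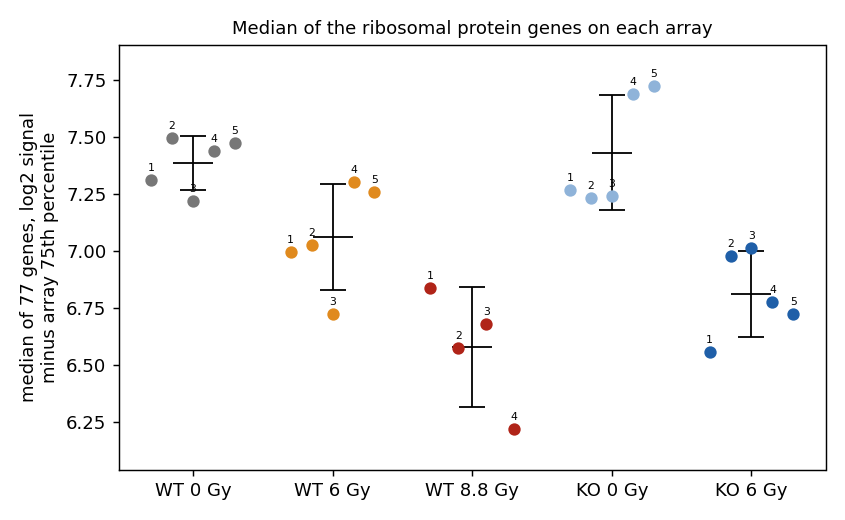
Median over the 77 ribosomal protein genes (log2 signal minus the array's 75th percentile) on each array, by group, with replicate numbers, the group mean as a wide tick and its SD as bars. The 4 WT 8.8 Gy arrays lie between 6.22 and 6.84, below all 5 WT 0 Gy arrays, and the 5 KO 6 Gy arrays between 6.56 and 7.01, below all KO 0 Gy arrays.

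At 8.8 Gy in the wild type, 53 of 77 ribosomal protein genes fell and none rose, where 9.06% of all genes tested were called lower and 7.05% higher. The falls ran from -1.58 to -0.66. The median difference from WT 0 Gy was -0.94 over the 77 genes and 0.03 over all genes. In 50 of the 77 every WT 8.8 Gy array lay below every WT 0 Gy array, a pattern that 11.4% of all genes showed, and in none was every array above, as in 6.71% of all genes. Without the libraries KO 6 Gy 1 and WT 8.8 Gy 4, 48 genes were called lower, with a median of -0.84, where 766 of all 13013 genes were called lower. With WT 8.8 Gy 2 left out as well, which leaves 2 arrays in the group, 9 genes were called lower, with a median of -0.82, and 51 had an unadjusted p under 0.05. Of all genes, 162 were then called lower, and 2448 had an unadjusted p under 0.05. The count of genes whose groups do not overlap was 50 in both cases, against 13.3% of all genes in the latter. Leaving out arrays cannot lower that count, so it does not show that the result holds without these libraries.

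The largest falls among the called genes at 8.8 Gy were those of Rps3, Rpl22, Rpl13a, Rpsa and Rps27. Rps3, a 40S protein at the messenger RNA entry channel, was at 6.40, 6.71, 6.23, 6.47 and 6.81 in WT 0 Gy and at 5.02, 4.71, 5.23 and 4.82 in WT 8.8 Gy. The groups did not overlap, and the difference was -1.58 ± 0.27 (SE), a 2.98-fold fall (limma, adjusted p = 0.000678). Rpl22, a 60S protein needed for the development of alpha-beta T cells, was at 6.17, 6.74, 6.09, 6.46 and 6.60 in WT 0 Gy and at 4.89, 4.83, 5.00 and 4.90 in WT 8.8 Gy, a difference of -1.50 ± 0.26 (adjusted p = 0.000568). Rpl13a, which also has a role in translational silencing outside the ribosome, differed by -1.46 ± 0.28 (adjusted p = 0.00169). Rpsa, a 40S protein that doubles as a laminin receptor, differed by -1.42 ± 0.30 (adjusted p = 0.00313), and Rps27, a zinc finger protein of the 40S subunit, by -1.31 ± 0.22 (adjusted p = 0.000471). With all 3 doubted libraries left out, Rps3, Rpl22, Rpl13a and Rps27 were still called (adjusted p = 0.0293, 0.0262, 0.0173 and 0.0293) and Rpsa was not (-1.25, adjusted p = 0.0743). The probe of Rps3 read here lies at chr7:106627408-106627786 on mm9, the build of the array's annotation. A second Rps3 probe gave -1.52, and another, much dimmer one gave 0.55.

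In the knockout at 6 Gy, 42 of the 77 genes fell and 1 rose, where 10.5% of all genes were called lower and 12.3% higher. The falls ran from -1.03 to -0.55. The median difference from KO 0 Gy was -0.62, against -0.07 over all genes. Every KO 6 Gy array lay below every KO 0 Gy array in 25 of the 77, against 6.03% of all genes, and above in none, against 9.37%. Without KO 6 Gy 1 and WT 8.8 Gy 4 the count was 26 lower and 1 higher, with a median of -0.54. Of all 13013 genes, 1170 were then called lower and 1457 higher. The groups did not overlap in 25 genes, against 6.67% of all genes, a count that leaving out arrays cannot lower. With WT 8.8 Gy 2 left out as well, 23 genes of the 77 were called lower and none higher, where 1055 of all genes were lower and 1324 higher. Leaving out single arrays moved the 43 calls in either direction to 28 without KO 6 Gy replicate 1, 27 without KO 0 Gy replicate 4, 26 without KO 0 Gy replicate 5 and 51 without KO 0 Gy replicate 3. How many of all genes were called in those fits is not given here. The count was 17 of 77 lower with median centring, where 1246 of 13013 genes were called lower and 1529 higher. With normexp background correction and quantile normalization it was 9 of 77 lower and 3 higher, where 1237 of 13013 genes were lower and 1507 higher. On the 1 slide that held both groups, the single KO 6 Gy array was below the mean of the 2 KO 0 Gy arrays for 68 of 77 genes, with a median difference of -0.63.

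The largest falls in the knockout were those of Rps26, Rpsa, Rpl13a, Rpl36a and Rpl8. Rps26, a 40S protein at the messenger RNA exit channel, was at 6.72, 6.72, 6.66, 7.19 and 7.28 in KO 0 Gy and at 5.40, 6.11, 6.12, 6.13 and 5.67 in KO 6 Gy. The KO 6 Gy arrays were all below the KO 0 Gy arrays, and the difference was -1.03 ± 0.22 (adjusted p = 0.00202). Rpsa differed by -1.03 ± 0.28 (adjusted p = 0.0105), Rpl13a by -1.02 ± 0.26 (adjusted p = 0.00749), Rpl36a by -1.01 ± 0.23 (adjusted p = 0.00307) and Rpl8, a core 60S protein, by -0.94 ± 0.20 (adjusted p = 0.0018). Rpsa and Rpl13a are thus among the 5 largest falls of both comparisons.

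At 6 Gy in the wild type, 9 of the 77 genes fell and 1 rose, 11.7% of them lower and 1.3% higher, where 10.9% of all genes tested were called lower and 15.5% higher. The share called lower is near that of all genes. The median difference was -0.37, against 0.04 over all genes, and 72 of the 77 differences were below 0. In 8 of the 77 every WT 6 Gy array lay below every WT 0 Gy array, against 9.63% of all genes, and in 1 above, against 8.98%. The count changed with the scaling. Centring each array on its median lowered the median of all genes by 0.78 and gave 72 ribosomal protein genes lower and none higher, while normexp with quantile normalization gave none lower and 4 higher, with medians of -1.15 and -0.07. Under the same settings, 533 genes of all those tested were called higher and 5560 lower with median centring, and 1570 and 1559 with normexp, against 2019 and 1418 as reported here. Relative to the median of all genes, the ribosomal protein genes stood at -0.41 as reported here and at -0.08 with normexp. Median centring only changes the constant subtracted from each array, which moves all genes alike, so it gives -0.41 by construction. The 10 calls in either direction became 4 without WT 6 Gy replicate 3, 5 without WT 6 Gy replicate 2, 6 without WT 0 Gy replicate 2 and 19 without KO 0 Gy replicate 3, an array that enters only through the shared estimate of the spread. Calls over all genes in those fits are not given here.

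The 5 largest falls at 6 Gy in the wild type were those of Rpl14, Rps13, Rps6, Rpl23a and Rps15a. Rpl14 was at 7.58, 7.49, 7.39, 7.44 and 7.48 in WT 0 Gy and at 6.87, 5.90, 6.37, 7.01 and 6.94 in WT 6 Gy, without overlap, a difference of -0.86 ± 0.26 (adjusted p = 0.0215). Rps13 differed by -0.83 ± 0.24 (adjusted p = 0.0149), with its lowest WT 6 Gy array at 5.25 and the others between 5.95 and 6.60. Rps6, the 40S protein that S6 kinases phosphorylate when mTOR is active, was at 7.21, 7.08, 7.12, 6.84 and 7.02 in WT 0 Gy and at 6.37, 5.93, 6.06, 6.79 and 6.57 in WT 6 Gy. Its arrays did not overlap, and the difference was -0.71 ± 0.22 (adjusted p = 0.0203). Rpl23a, which lies at the exit of the peptide tunnel, differed by -0.68 ± 0.19 (adjusted p = 0.0137) and Rps15a by -0.67 ± 0.19 (adjusted p = 0.0145). All 9 genes that fell here were also called lower at 8.8 Gy, a comparison that shares the WT 0 Gy arrays.

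**Figure D2:**
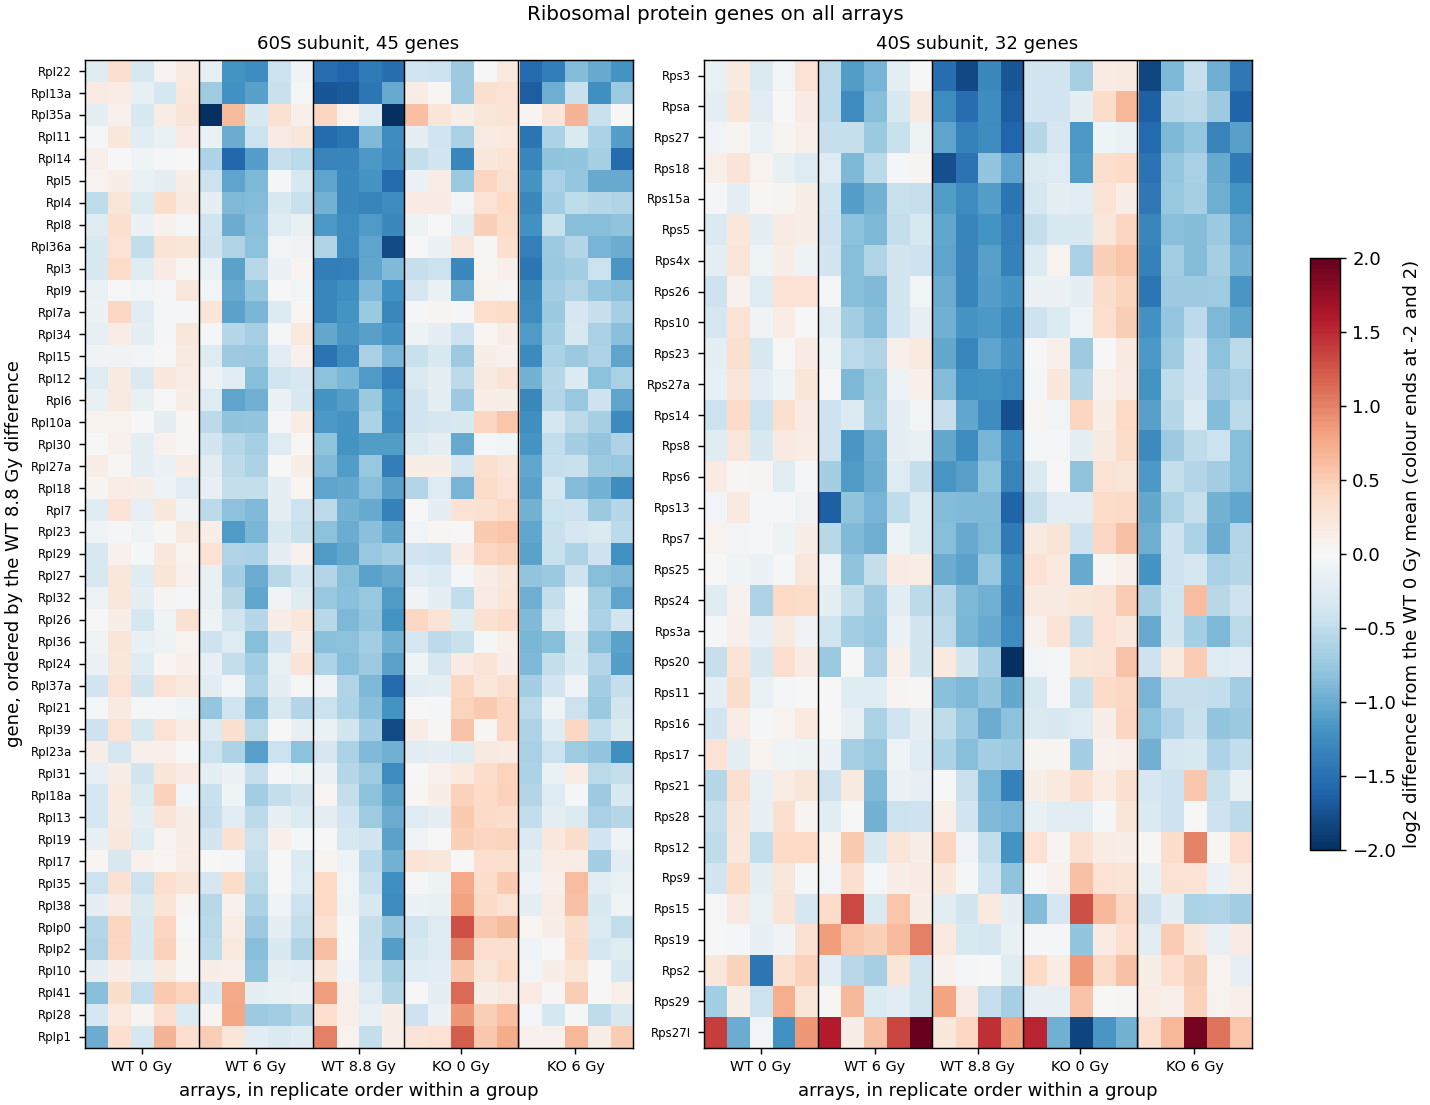
Each of the 77 ribosomal protein genes (rows, by subunit, ordered by the WT 8.8 Gy difference) on each of the 24 arrays (columns, by group), as the log2 difference from the gene's WT 0 Gy mean, blue lower and red higher. Most rows are blue in WT 8.8 Gy and KO 6 Gy, and the rows at the foot of the panels, among them the stalk genes, Rpl41, Rps19 and Rps27l, are paler or red.

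The subunits had similar median differences, a comparison that was not tested. At 8.8 Gy in the wild type, the median difference was -0.90 for the 45 genes of the 60S subunit and -1.03 for the 32 of the 40S subunit. At 6 Gy in the knockout the medians were -0.61 and -0.65, and at 6 Gy in the wild type -0.37 and -0.35.

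The 3 stalk genes were not called in any comparison. Rplp0 encodes the scaffold on which dimers of Rplp1 and Rplp2 recruit the translation factors that hydrolyse GTP. Rplp0 differed from sham by -0.25 ± 0.32 (SE) at 8.8 Gy and by -0.41 ± 0.30 in the knockout. Rplp1 differed by 0.18 ± 0.32 and -0.31 ± 0.30, and Rplp2 by -0.24 ± 0.32 and -0.27 ± 0.31. At 6 Gy in the wild type Rplp0 and Rplp2 differed by -0.35 and -0.41, beside a median of -0.37 for all 77 genes. No test set the stalk genes against the others. Their sham arrays spread widely, with Rplp1 between 9.04 and 10.71 in WT 0 Gy and Rplp0 between 10.20 and 11.89 in KO 0 Gy. Rpl41, the smallest ribosomal protein, differed by 0.03 ± 0.33 at 8.8 Gy and by -0.09 ± 0.31 in the knockout, and its WT 8.8 Gy arrays, at 12.01, 11.27, 10.91 and 10.60, lay on both sides of the WT 0 Gy mean.

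These genes have the brightest probes of the set, and brighter probes differed less. Over the 77 genes Spearman's rho between the mean log2 signal of the probe and the difference was 0.41 at 8.8 Gy and 0.39 in the knockout, a description across genes that share the same arrays. The 25 genes with the brightest probes had a median difference of -0.58 at 8.8 Gy and the 25 with the dimmest -1.08, and in the knockout the medians were -0.55 and -0.80. They were -0.42 and -1.04, and -0.46 and -0.73, without KO 6 Gy 1 and WT 8.8 Gy 4. No probe was saturated, and whether the signal range has a part in this was not tested.

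**Figure D3:**
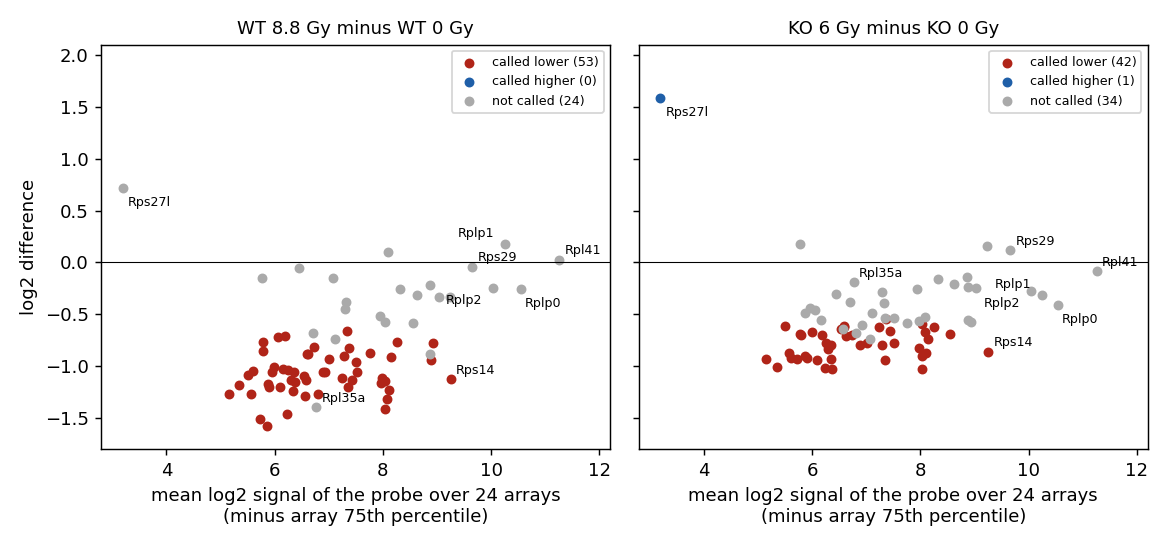
Log2 difference from sham against the mean log2 signal of the gene's probe over the 24 arrays, for WT 8.8 Gy (left) and KO 6 Gy (right), 1 point per gene, coloured by the limma call. Rpl41, farthest to the right, lies at 0.03 and -0.09, the stalk genes beside it between -0.25 and 0.18 on the left panel and between -0.41 and -0.27 on the right, and Rps27l, farthest to the left, at 0.72 and 1.59.

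Rpl5, Rpl11 and Rpl23 bind and inhibit Mdm2 when they are free of the ribosome. Rpl5 was at 5.75, 5.81, 5.54, 5.47 and 5.79 in WT 0 Gy, at 4.61, 4.39, 4.49 and 4.14 in WT 8.8 Gy, at 5.56, 5.82, 4.94, 6.10 and 5.97 in KO 0 Gy and at 4.49, 5.03, 4.90, 4.66 and 4.67 in KO 6 Gy. The wild-type groups do not overlap, and those of the knockout do so only through KO 0 Gy replicate 3. The differences were -1.27 ± 0.24 (adjusted p = 0.00135) and -0.93 ± 0.22 (adjusted p = 0.00444). Rpl11 differed by -1.29 ± 0.27 at 8.8 Gy (adjusted p = 0.003) and by -0.64 ± 0.25 in the knockout, where it was not called (adjusted p = 0.0688). Rpl23 fell by 0.91 at 8.8 Gy and by 0.74 in the knockout, with SEs of 0.23 and 0.22 and adjusted p-values of 0.00923 and 0.0157. None of the 3 was called at 6 Gy in the wild type, where the differences were -0.54, -0.23 and -0.53. Mdm2 itself rose, by 1.38 at 8.8 Gy, 1.66 in the knockout and 1.19 in the wild type at 6 Gy.

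Rps27a is made as a fusion with ubiquitin. It was at 7.68, 8.09, 7.61, 7.75 and 8.09 in WT 0 Gy and at 6.98, 6.63, 6.64 and 6.58 in WT 8.8 Gy, a difference of -1.13 ± 0.23 (adjusted p = 0.00278), and it differed by -0.66 ± 0.22 in the knockout (adjusted p = 0.0324). Rps6 was also called at 8.8 Gy, with -1.10 ± 0.23 (adjusted p = 0.00304), and in the knockout, with -0.64 ± 0.22 (adjusted p = 0.0353). Without KO 6 Gy 1 and WT 8.8 Gy 4 the knockout calls of Rps27a, Rpl23, Rps6, Rps3 and Rps27 were lost, with adjusted p-values of 0.101, 0.0578, 0.096, 0.055 and 0.0646.

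Rps27l, the paralog of Rps27 and a transcriptional target of p53, went the other way. Its 1 probe is listed at chr9:66795486-66797176 on mm9. It was at 4.30, 1.81, 0.95, 1.62 and 1.84 in KO 0 Gy and at 3.12, 3.45, 4.70, 3.86 and 3.33 in KO 6 Gy. All KO 6 Gy arrays were above 4 of the 5 KO 0 Gy arrays, and the difference was 1.59 ± 0.56, a 3.01-fold rise (adjusted p = 0.042). In the wild type it was at 4.17, 1.80, 2.73, 1.58 and 3.64 without radiation, at 4.34, 2.90, 3.37, 4.12 and 4.89 after 6 Gy and at 3.20, 4.24 and 3.58 on WT 8.8 Gy replicates 2, 3 and 4, with replicate 1 lower than these and above 3 of the 5 WT 0 Gy arrays. The wild-type groups overlapped and neither difference was called, 1.14 ± 0.56 (adjusted p = 0.128) and 0.72 ± 0.59 (adjusted p = 0.428). The call in the knockout was lost under 8 of 17 other settings, among them slide as a random block (1.34, adjusted p = 0.109), and on leaving out single arrays (adjusted p up to 0.117).

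The sham arrays on which Rps27l was high were those on which transcripts of hepatocytes were high. The mean log2 level of 14 hepatocyte markers (of 23 listed) was 7.14, -1.18, 4.92, -0.94 and 6.39 on the WT 0 Gy arrays and 6.59, -0.03, 1.94, -0.54 and -0.54 on the KO 0 Gy arrays, in replicate order. With that mean as a covariate, the difference of Rps27l was 1.39 at 6 Gy in the wild type (adjusted p = 0.00854), 1.19 in the knockout (adjusted p = 0.0225) and 0.46 at 8.8 Gy (adjusted p = 0.406). The same covariate gave 15 ribosomal protein genes lower and 2 higher at 6 Gy in the wild type, 53 lower at 8.8 Gy, and 43 lower and 1 higher in the knockout. Of all genes, 1947, 1516 and 1439 were then called lower in the same order, and 2298, 1649 and 2087 higher.

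Rps19, the 40S protein most often mutated in Diamond-Blackfan anaemia, was the gene that rose at 6 Gy in the wild type. It was at 5.63, 5.60, 5.48, 5.57 and 5.94 in WT 0 Gy and at 6.47, 6.21, 6.12, 6.28 and 6.65 in WT 6 Gy, without overlap, a difference of 0.70 ± 0.21, or 1.63-fold (adjusted p = 0.017). At 8.8 Gy it was at 5.84, 5.35, 5.31 and 5.50, within the range of WT 0 Gy apart from replicates 2 and 3. The rise was -0.08 with median centring and 0.85 with normexp (adjusted p = 0.828 and 0.00555), and the gene has 1 probe, at chr7:25670166-25670225 on mm9.

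Other paralogs gave little signal. Rpl3, at the peptidyl transferase centre, differed by -1.17 ± 0.28 at 8.8 Gy (adjusted p = 0.00784), and its striated-muscle paralog Rpl3l was not tested. Rpl39, a small protein lining the exit tunnel, differed by -0.74 ± 0.29 (adjusted p = 0.0819), and its paralog Rpl39l was not tested either. Rpl10, which joins the 60S subunit late, differed by -0.22 ± 0.23 (adjusted p = 0.554). Its paralog Rpl10l, which has no place among the 77, was at -3.93 to -1.98 in WT 0 Gy and at -1.97 to -1.01 in WT 6 Gy, with 2 of 5 and 4 of 5 arrays well above background, so no fold is given.

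**Figure D4:**
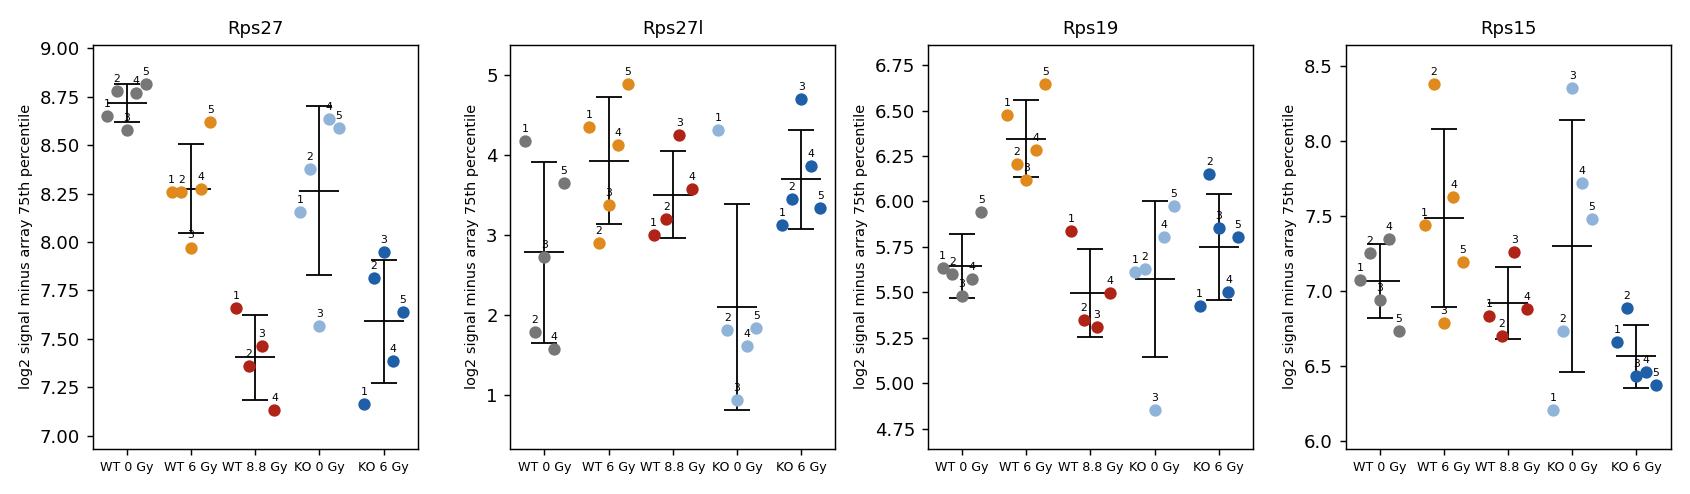
Log2 signal minus the array's 75th percentile of Rps27, its paralog Rps27l, Rps19 and Rps15 on each array, with replicate numbers, the group mean as a wide tick and its SD as bars. Rps27 is lower in WT 8.8 Gy and KO 6 Gy, Rps27l spreads from 0.95 to 4.30 in KO 0 Gy, and Rps19 is highest in WT 6 Gy, an order that turns with median centring, where its difference is -0.08.

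The genes called after 8.8 Gy in the wild type and after 6 Gy in the knockout were set side by side. The comparisons have no control arrays in common, but the near-identical pair of libraries has 1 member on each side. Of the genes called lower, 40 were shared, which is 75.5% of those at 8.8 Gy and 95.2% of those in the knockout, and 22 of the 77 were called lower in neither. The 22 were the 3 stalk genes, Rpl10, Rpl17, Rpl19, Rpl28, Rpl35, Rpl35a, Rpl38, Rpl39 and Rpl41 of the 60S subunit, and Rps2, Rps9, Rps12, Rps15, Rps19, Rps20, Rps21, Rps27l, Rps28 and Rps29 of the 40S subunit. Across the 77 genes Pearson's r between the differences was 0.76, and it was 0.71 without KO 6 Gy 1 and WT 8.8 Gy 4. Leaving out those libraries, 23 genes were shared, 47.9% of 48 and 88.5% of 26. With WT 8.8 Gy 2 left out too, so that neither of the near-identical libraries remained, 6 were shared, 66.7% of 9 and 26.1% of 23, and r was 0.73. How many shared calls remain thus depends on these libraries. The knockout against the wild type at these doses, KO 6 Gy against WT 8.8 Gy, gave no call among the ribosomal protein genes with limma, and none among all genes (0.0% lower, 0.0% higher), while 4 of the 77 and 268 of all genes had an unadjusted p under 0.05. The median difference was 0.28, with 74 of 77 genes above 0, and within the 1 scan day that held both groups it was 0.33. The arrays of the groups overlapped in all 77 genes, where 0.415% of all genes had every KO array below and 0.123% above. Without KO 6 Gy 1 and WT 8.8 Gy 4 the median was 0.29, with 72 of 77 above 0, no gene of the 77 and 1 of all genes was called, and 4 and 477 had an unadjusted p under 0.05. No gene of the 77 then had every KO array below every WT array, against 2.30% of all genes, and the count above was not taken. With WT 8.8 Gy 2 left out too, the median was 0.23, with 71 of 77 above 0. None of the 77 then had an unadjusted p under 0.05, against 209 of all genes.

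**Figure D5:**
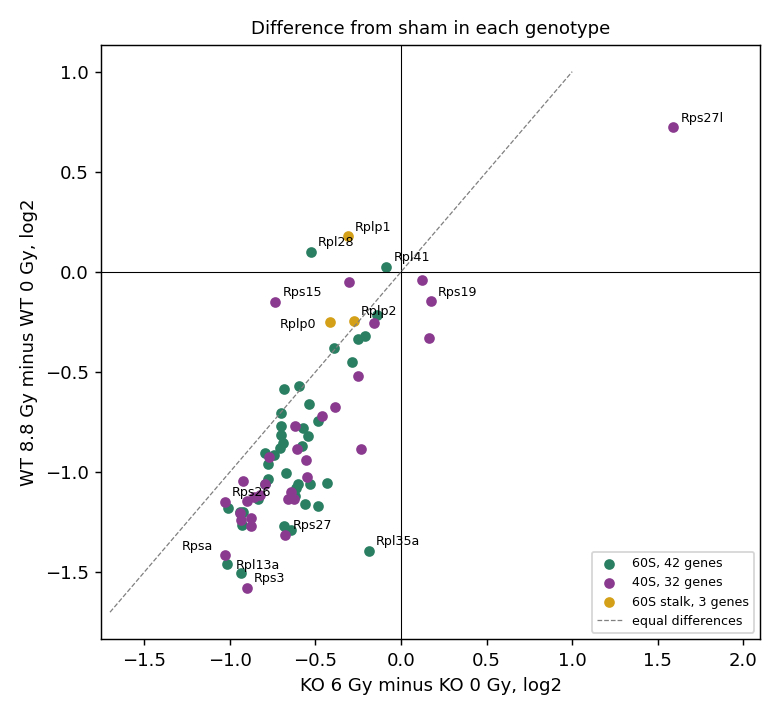
Log2 difference of WT 8.8 Gy from WT 0 Gy (vertical) against that of KO 6 Gy from KO 0 Gy (horizontal), 1 point per ribosomal protein gene, coloured by subunit, with the line of equal differences. Most points lie to the lower left, below the line, Pearson's r is 0.76, and Rps27l lies far to the upper right at 1.59 and 0.72.

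Between 8.8 Gy and 6 Gy in the wild type no gene of the 77 and none of all genes was called with limma (0.0% lower, 0.0% higher). The median difference was -0.55, against -0.08 over all genes, 69 of 77 genes were below 0, and 44 of them had an unadjusted p under 0.05, as had 2350 of the 13013. In 19 of the 77 every WT 8.8 Gy array lay below every WT 6 Gy array, against 3.06% of all genes, and in none above, against 2.38%. Without WT 8.8 Gy 4 and KO 6 Gy 1 the count below, which leaving out arrays cannot lower, was 20, against 3.81% of all genes. The median was then -0.47, and 34 genes of the 77 had an unadjusted p under 0.05, none of them called, where 1649 of all genes had one. All arrays of both groups were scanned on the same day. The smallest adjusted p was 0.0957, for Rpl34 (-0.89 ± 0.20) and Rps23 (-0.95 ± 0.23). Rpl34 was at 7.61, 7.08, 6.99, 7.61 and 7.85 in WT 6 Gy and at 6.62, 6.48, 6.57 and 6.47 in WT 8.8 Gy, which do not overlap. With normexp and quantile normalization 14 genes were called lower, with the hepatocyte covariate 9, and with median centring none lower and 1 higher. Of all genes, 58, 109 and 48 were called lower in these fits, and 41, 527 and 1642 higher.

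Without radiation the genotypes gave no call among the 77 genes, where 0.0461% of all genes were called lower and 0.638% higher. These groups were scanned on different days, so genotype and scan day cannot be told apart between them. The median difference, KO 0 Gy minus WT 0 Gy, was 0.04, and it was -0.18 with normexp and -0.24 in the authors' deposited table. Only Rps27 had an unadjusted p under 0.05 among the 77, with -0.45 ± 0.21 (adjusted p = 0.221), against 2681 of all genes. The arrays of the genotypes overlapped in all 77 genes, where 2.08% of all genes had every KO array below and 3.87% above. At 6 Gy, KO against WT also gave no call among the 77 (0.492% of all genes lower, 0.361% higher). Of the 77, 20 had an unadjusted p under 0.05, as had 3036 of all 13013 genes, which is near the same share. The median difference was -0.24. With median centring it was 0.40, with 18 of 77 genes called higher, where 3640 of 13013 genes were higher and 169 lower. With normexp it was -0.38, with 5 of 77 called lower, where 50 of all genes were lower and 47 higher. Rps27 had the smallest adjusted p, with -0.69 ± 0.21 (adjusted p = 0.0703). Every KO array lay below every WT array at 6 Gy in 2 of the 77, against 2.13% of all genes, and above in none, against 2.94%. Without KO 6 Gy 1 and WT 8.8 Gy 4 the median was -0.16, and none of the 77 was called where 489 of all genes were lower and 117 higher (64 and 47 with all arrays). An unadjusted p under 0.05 was then found for 6 of the 77 and 2979 of all genes, and Rps27 differed by -0.58 (adjusted p = 0.108). The 2 genes without overlap, a count that leaving out arrays cannot lower, then stood against 4.92% of all genes.

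The 6 Gy responses of the genotypes were compared by their interaction, which includes the sham groups scanned on different days. No ribosomal protein gene was called (5.19% of all genes lower, 0.93% higher). Only 1 of the 77, Rps15, had an unadjusted p under 0.05, against 3332 of all 13013 genes, so the 77 lay below the share of all genes. The median interaction was -0.27, with 64 of 77 below 0. It was 0.55 with median centring, where 3 of the 77 were called higher, beside 3510 of all 13013 genes higher and 433 lower. Rps15 was at 7.44, 8.38, 6.79, 7.63 and 7.19 in WT 6 Gy and at 6.66, 6.89, 6.44, 6.46 and 6.37 in KO 6 Gy, with sham arrays from 6.73 to 7.35 and from 6.21 to 8.36. Its interaction was -1.15 ± 0.45 (adjusted p = 0.109). Leaving out KO 6 Gy 1 and WT 8.8 Gy 4, it was -1.18 ± 0.48 (adjusted p = 0.127), the median of the 77 genes was -0.20, none was called and 1 had an unadjusted p under 0.05, where 1040 of all genes were called lower and 129 higher. An unadjusted p under 0.05 was then found for 3343 of all genes. A dimmer second probe of Rps15 gave -0.32 at 6 Gy in the wild type where the brighter one gave 0.42, and -0.64 in the knockout where it gave -0.74.

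Different probes of a gene mostly moved together. At 8.8 Gy, all detected probes had the same sign in 54 of 58 genes with several, at 6 Gy in the knockout in 55 and at 6 Gy in the wild type in 51. Rpl35a, a 60S protein also mutated in Diamond-Blackfan anaemia, shows where a single array weighed. Its brightest probe was at 7.41, 7.06, 6.73 and 1.19 in WT 8.8 Gy and at 4.45, 7.62, 6.69, 7.30 and 7.09 in WT 6 Gy, and its difference at 8.8 Gy, -1.39 ± 0.83, was not called (adjusted p = 0.263). The second probe was at 5.38, 4.89, 4.62 and 4.26 on the same WT 8.8 Gy arrays, a difference of -0.36. The array places the brightest probe of 10 of the 77 genes on a chromosome other than the gene's own, among them Rps27, Rpl3 and Rplp1. Ribosomal protein genes have many processed pseudogenes, so which copy gives the signal is uncertain. In a fit chosen after the data were seen, the brightest detected probe on the gene's own chromosome was read where there was one. This changed the probe of 6 of the 10 genes, and the others kept theirs. The counts were then 9 lower and 1 higher, 53 lower, and 41 lower and 1 higher.

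Some other genes of translation also fell. Beside the counts of the lists below, 9.06% of all genes were called lower and 7.05% higher at 8.8 Gy. The shares were 10.5% and 12.3% in the knockout, and 10.9% and 15.5% at 6 Gy in the wild type. Of the 6 measured cytosolic ribosomal genes outside the name pattern, 2 fell at 8.8 Gy, Gnb2l1 (-1.14), which encodes the 40S scaffold Rack1, and Rpl22l1 (-1.14), the paralog of Rpl22. In the knockout 1 of the 6 fell, Gnb2l1 (-0.68), and at 6 Gy in the wild type limma called none and none had an unadjusted p under 0.05. Of 19 translation factors and other genes with TOP messenger RNAs, 11 fell at 8.8 Gy, 9 in the knockout and 7 at 6 Gy in the wild type, none rose, and the medians were -0.88, -0.38 and -0.50. Eef1a1, the elongation factor that brings aminoacyl-tRNA, differed by -0.95 at 8.8 Gy (adjusted p = 0.0113), Eef1g by -1.30 (adjusted p = 0.0026) and Npm1, a nucleolar chaperone, by -1.37 (adjusted p = 0.0045). Tpt1, with -0.17 in the knockout and 0.05 at 8.8 Gy, was not called.

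Of 25 measured ribosome biogenesis genes (28 listed), 13 fell and 1 rose at 8.8 Gy, 9 fell in the knockout, and 12 fell and 1 rose at 6 Gy in the wild type, with medians of -0.91, -0.51 and -0.80. Dkc1, the pseudouridine synthase of ribosomal RNA, differed by -1.03, -2.22 and -1.83, and Fbl, the methyltransferase of box C/D particles, by -1.06, -0.90 and -1.04. Pes1 was the gene that rose, by 1.68 at 8.8 Gy and 1.49 at 6 Gy. At 6 Gy in the wild type this list stood lower than the ribosomal protein genes, a difference that was not tested. Of 14 genes of translation control and nucleolar stress, 3 fell and 3 rose at 8.8 Gy, 4 fell and 3 rose in the knockout, and 6 fell and 3 rose at 6 Gy in the wild type, with medians of -0.51, -0.23 and -0.58. Myc, a driver of ribosome production, fell by 1.47, 1.09 and 1.22, Larp1, which binds TOP messenger RNAs, fell by 0.99, 1.50 and 1.31, and Cdkn1a, the p53 target that stops the cell cycle, rose by 3.89, 4.17 and 4.16.

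Of 75 measured mitochondrial ribosomal protein genes, which build the separate ribosome of the mitochondrion, 3 fell at 8.8 Gy, 4 in the knockout, and 4 fell and 2 rose at 6 Gy in the wild type. Their medians were -0.47, -0.06 and -0.33. Mrpl32 fell in all 3 comparisons, by 0.89, 1.39 and 1.11. The difference between these genes and the cytosolic ones was not tested. Without KO 6 Gy 1 and WT 8.8 Gy 4, the numbers that fell at 8.8 Gy and in the knockout were 2 and 0 of the 6 genes outside the name pattern, 7 and 5 of the 19 with TOP messenger RNAs, 8 and 5 of the 25 of biogenesis, 2 and 4 of the 14 of translation control, and 0 (13 at an unadjusted p under 0.05) and 3 of the 75 mitochondrial ones. Of all 13013 genes, 766 and 1170 were then called lower, and 3561 had an unadjusted p under 0.05 in either direction at 8.8 Gy. With WT 8.8 Gy 2 left out as well, limma called no gene of these lists lower at 8.8 Gy, and 162 of all genes. At an unadjusted p under 0.05, 3, 12, 12, 4 and 2 genes of the lists in the same order were lower, beside 2448 of all genes in either direction.

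Markers of cell types were read on the same arrays. Beside the counts that follow, 9.06% of all genes were called lower and 7.05% higher at 8.8 Gy. The shares were 10.5% and 12.3% in the knockout, and 10.9% and 15.5% at 6 Gy in the wild type. Of 14 B cell markers tested (of 18 listed), 12 fell at 8.8 Gy, 11 in the knockout and 10 at 6 Gy in the wild type, and their mean level ran from 0.72 to 1.26 in WT 0 Gy, -1.17 to -0.34 in WT 6 Gy, -1.54 to -1.19 in WT 8.8 Gy, -0.02 to 1.32 in KO 0 Gy and -2.02 to -1.01 in KO 6 Gy. Blk was well above background on no array. Of 21 T cell markers, 18 fell at 8.8 Gy, 18 in the knockout and 16 at 6 Gy in the wild type, with mean levels of 2.83 to 3.62, 1.51 to 2.30, 0.89 to 2.05, 2.47 to 3.63 and 1.02 to 2.05 in the same order. Of 20 erythroid markers measured (21 listed), 4 fell and 1 rose at 8.8 Gy, 14 fell and 1 rose in the knockout, and 12 fell and 1 rose at 6 Gy in the wild type, with mean levels of 2.75 to 4.30, 1.70 to 2.84, 1.86 to 4.12, 3.85 to 5.90 and 2.79 to 3.40. Of 16 platelet markers, 10 rose at 8.8 Gy, 8 in the knockout and none at 6 Gy in the wild type, with mean levels of 2.96 to 4.94 in WT 0 Gy, at most 5.21 in WT 6 Gy, 4.76 to 6.04 in WT 8.8 Gy, 3.70 to 4.57 in KO 0 Gy and 4.49 to 5.80 in KO 6 Gy. Of 17 neutrophil markers, 6 rose at 8.8 Gy, 3 rose and 2 fell in the knockout, and 5 rose at 6 Gy in the wild type. Of 11 monocyte markers measured (13 listed), 2 fell and 2 rose at 8.8 Gy and likewise in the knockout, and 1 fell and 1 rose at 6 Gy in the wild type. None of the 14 hepatocyte markers was called, and of 6 heart muscle markers measured (15 listed) 1 fell at 8.8 Gy and 1 in the knockout. The part of these cells in the fall of the ribosomal protein genes was not tested.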

How the data were processed

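Per the file headers, the authors scanned 1-colour arrays with Agilent Feature Extraction 11.5.1, and the deposited intensity (processed signal) is background-subtracted and detrended, with no normalization between arrays. The well-above-background and saturation flags are other values, 0 or 1, per the file headers. The authors' deposited log2 table equals log2 of that signal plus a constant per array for 98.9% to 99.8% of probes (within 0.01), with column medians of 7.63 to 8.09. How those constants were set is not stated in the labels or headers read here. It holds 42 of the 77 genes and served as an alternative.

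Control and outlier spots were dropped and spots of a probe averaged, giving 39429 probes. Log2 signal minus the array's 75th percentile over non-control spots was used. The 75th percentile was 5.57 to 7.96 (log2), and 36.4% to 57.5% of probes were well above background, which limits precision for dim probes. The brightest probe of a gene was tested where 4 or more arrays of any group had it well above background. limma 3.58.1 (R 4.3.3) fitted 5 group means over 24 arrays for 8 comparisons. The fit was tested on simulated data with known changes.

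Named were Parp1, the 5 largest falls and rises among called genes of each comparison, genes called against the majority, and genes listed by role. Rpl34, Rps23, Rps15, Rpl35a and the other genes outside this rule were chosen after their values were seen. The genes and lists were chosen with earlier results of these data known. p-values measure the spread between mice. Replicate numbers did not pair the arrays: 13 of 46 same-number pairs correlated above 0.1, with a median r of -0.06.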

Additional observations from a re-analysis of the deposited data

Results flagged for a closer look

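In 7 of 130 groups of arrays, over 26 genes, 1 array lay far from the others of its group by Dixon's criterion, where chance gives about 1 in 20. Rpl35a was at 1.19 on WT 8.8 Gy replicate 4 and between 6.73 and 7.41 on the other arrays of that group. Rps13 was at 5.28 on the same array, below the others at 5.99 to 6.01. In WT 0 Gy, replicate 2 had the highest Rps13, 7.05 against 6.81 to 6.86, and the lowest Rpl23a, 6.29 against 6.62 to 6.74. Rps27a was at 6.98 on WT 8.8 Gy replicate 1, above the others at 6.58 to 6.64. Rpl13a was at 6.10 on KO 0 Gy replicate 3, below the others at 6.87 to 7.15. Rps27l was at 4.30 on KO 0 Gy replicate 1, above the others at 0.95 to 1.84, and that array also had the highest mean of hepatocyte markers in its group, 6.59. The part of those transcripts in the level was not tested.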

How the results depend on the processing

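The counts of ribosomal protein genes called are given in either direction and were compared over 17 settings and 24 fits that each left out 1 array. For the 24 fits, calls over all genes are not set beside these counts. At 8.8 Gy in the wild type (53) the count was 0 with a fixed block for slide or for scan day, 9 without KO 6 Gy 1, WT 8.8 Gy 2 and WT 8.8 Gy 4, and 49 to 59 with single arrays left out. At 6 Gy in the knockout (43) it was 0 with slide or scan day fixed, 17 with median centring, 12 with normexp and quantile normalization, 14 of 42 in the authors' deposited table, 27 with no filter on dim probes, 21 with only the groups compared, 27 without KO 6 Gy 1 and WT 8.8 Gy 4, 23 without those and WT 8.8 Gy 2, and 26 to 51 with single arrays left out. At 6 Gy in the wild type (10) it was 0 with slide or scan day fixed, 72 with median centring, 4 with normexp, 17 with the hepatocyte covariate and 4 to 19 with single arrays left out. For KO 6 Gy against WT 6 Gy (0) it was 18 with median centring, 4 with the 75th percentile taken over detected probes, 5 with normexp, 1 with the covariate and 0 to 1 with single arrays left out. For 8.8 Gy against 6 Gy (0) it was 1, 14 and 9 with median centring, normexp and the covariate, and for the interaction (0) 3 with median centring and 0 to 1 with single arrays left out. The other comparisons stayed at 0 in all of these fits. Of all genes at 6 Gy in the knockout, 778 of 7352 were called lower and 1593 higher in the authors' deposited table. With no filter 1137 of 24184 were lower and 1251 higher, and with only the groups compared 912 of 13013 and 1332. For KO 6 Gy against WT 6 Gy, 782 of all genes were lower and 162 higher with the percentile over detected probes, and 627 and 841 with the covariate.

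Some values turned their sign. Rps19 at 6 Gy in the wild type was -0.079 with median centring, and Rps27l at 8.8 Gy was -0.85 with slide fixed (adjusted p = 0.832). The median of KO 0 Gy against WT 0 Gy was -0.18 with normexp and -0.24 in the authors' deposited table, that of KO 6 Gy against WT 6 Gy 0.40 and the interaction 0.55 with median centring. Median centring moved the median of all genes by -0.78 at 6 Gy and -0.32 at 8.8 Gy in the wild type, and by 0.64 and 0.82 in the last 2 comparisons. Calls over all genes at 8.8 Gy were then 501 higher and 1995 lower (918 and 1179 as reported), for KO against WT at 6 Gy 3640 and 169 (47 and 64) and for the interaction 3510 and 433 (121 and 676). Other causes were not tested.

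The fit with a replicate block called 8, 51 and 39 ribosomal protein genes in the responses at 6 Gy and 8.8 Gy in the wild type and at 6 Gy in the knockout, and 0 elsewhere. Of all 13013 genes, 1298, 899 and 1199 were then called lower in the same order, and 1785, 653 and 1436 higher. The replicate numbers did not pair the arrays. Of 31 results for single genes over the 17 settings, 403 values kept their direction and side of the threshold, 119 lost the call, 1 gained it and 2 turned.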
